A study of Mus musculus with 7 samples.

Results

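Replication-dependent histone genes and histone variant genes were followed in CD8+ T cells that had been exposed to extracellular vesicles of a leukemic or of a healthy spleen. The genes were chosen by name: rows of the count table whose symbol starts with Hist1h to Hist4h (the replication-dependent clusters) or with H2af or H3f3, or is H1f0 or H1fx (the polyadenylated variants), with a mean of 5 or more counts over the 7 libraries. The deposited table carries the newer histone nomenclature (H1f4 for Hist1h1e, H2az2 for H2afv), so the rule applied to the printed symbols found only 17 rows, of which 6 met the count minimum. Applied to the printed symbol or to the older name of the same gene in RefSeq, it found 89 rows, of which 62 genes met the minimum, among 12623 genes that met it and 55367 rows in all. These were 54 of 70 cluster rows (5 linker H1, 13 H2A, 13 H2B, 10 H3, and 13 H4 genes) and 8 of 19 variant rows. Of the 27 rows below the minimum, 14 had no count in any library, and the other 13 had means of at most 4.0 counts.

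The CD8+ T cells came from spleens of the Foxp3 YFP/cre strain and were sorted by FACS, and the labels give no age. The 4 control libraries (HCME-sEV replicates 1 to 4) were from cells given control EVs, small extracellular vesicles of healthy C57BL/6 spleens. The 3 treated libraries (LME-sEV replicates 1 to 3) were from cells given leukemia EVs, vesicles from spleens of leukemic Eμ-TCL1 mice. These mice express the TCL1 oncogene in B cells. The study's own description of this experiment gives the group sizes the other way round. The labels were followed here, and the direction of every difference rests on them. Both groups carried the same reporter allele and received sEVs at 100 ug/ml for 48 hours per the labels, whereas the study's methods give an amount matched to the spleen of origin. The methods describe culture on anti-CD3 with IL2 and an antibody to CD28 for CD8+ T cells isolated by negative selection. For sorted cells used on microarrays they name IL2 but neither antibody. Which culture applied to the sorted cells of this experiment is not stated there, so activating conditions are not settled by the methods. RNA was profiled by a 3′ tag assay primed on poly(A), with molecular identifiers. The comparison asked which transcripts differed between cells given LME-sEVs and cells given HCME-sEVs, and nothing in the labels says which libraries share an animal or a culture, so p-values measure only the spread between these libraries, which may be technical.

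Histones package DNA: pairs of H2A, H2B, H3, and H4 form the core that DNA wraps around, and linker H1 binds where DNA enters and leaves it. The replication-dependent genes lie in clusters, lack introns, and are transcribed mostly in S phase, when new DNA must be packaged. Their mRNAs are the exception among metazoan mRNAs in ending not in a poly(A) tail but in a conserved stem loop, which SLBP binds and the U7 small nuclear ribonucleoprotein helps to cleave. The variants (H2A.Z, H2A.X, macroH2A, H3.3, H1.0) are made outside S phase as well, from single genes whose mRNAs carry poly(A) tails, and are placed in chromatin by dedicated chaperones. A T cell that is activated through its receptor enters rapid division, with high demand for replication-dependent histones.

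The stem loop sets these mRNAs apart and bears on how a poly(A)-primed assay counts them. The pattern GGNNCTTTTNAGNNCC, on the sense strand within 100 bases after the stop codon, was present in 47 of 49602 coding transcripts of GENCODE vM21 with at least 60 bases of 3′ UTR (0.0948%), from 45 genes, 43 of which matched the naming rule. In the members the whole annotated 3′ UTR was searched, with no length minimum, so Hist1h4m with 52 bases could count. By this wider rule the pattern was found in 35 of the 54 cluster genes and in 1 variant, H2ax. The cluster genes held 6 distinct loops, each shown for 1 gene with the loop in capitals and 5 flanking bases on either side, 5′ to 3′ on the coding strand, and with the GRCm38 position of the capitals.
H1f4 (chr13:23621782-23621797, minus strand): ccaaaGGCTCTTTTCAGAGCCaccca
H2bc12 (chr13:22036300-22036315, plus strand): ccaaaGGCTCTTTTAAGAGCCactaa
H2ac20 (chr3:96220418-96220433, minus strand): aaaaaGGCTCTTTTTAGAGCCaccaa
H4c3 (chr13:23698089-23698104, minus strand): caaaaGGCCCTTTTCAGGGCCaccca
H4c9 (chr13:22040966-22040981, minus strand): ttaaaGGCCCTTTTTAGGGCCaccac
H4c2 (chr13:23757366-23757381, plus strand): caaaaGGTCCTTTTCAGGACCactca
H2ax (chr9:44335240-44335255, plus strand): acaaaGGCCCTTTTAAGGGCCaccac
The loop of H1f4 was shared by 18 genes of the H1, H2A, H2B, and H3 types, that of H2bc12 by 5 H2B and H3 genes, and that of H4c3 by 7 H4 genes. H4c9 shared its loop with H4c14, H4c2 shared its loop with H4c11, and the loop of H2ac20 was in no other cluster gene. In the other 19 cluster genes the annotated transcripts did not contain the pattern in a 3′ UTR, and in 13 of these the annotated 3′ UTR was absent or shorter than the 16 bases of the loop.

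The libraries held 3689831 to 5030522 counts each, so 3 counts in a library, the floor used here, correspond to 0.580 to 0.804 CPM (counts scaled to a common library size, with TMM factors of 0.966 to 1.03). Cd8a had a mean of 386 CPM and Cd8b1 324 CPM, while Cd4, Foxp3, Cd79a, Pax5, Lyz2, and Csf1r were below the count minimum. Some other markers of non-CD8 cells were counted and are given further below. The 20 S-phase genes described below summed to 4123 ± 62.0 CPM (SD) with HCME-sEVs and 3665 ± 118 CPM with LME-sEVs. The 12 genes of G2 and mitosis summed to 4436 ± 251 and 3997 ± 162 CPM. Transcripts of dividing cells were thus counted in both groups, and the culture behind them was not tested. B-cell markers, nearly all Ighm, summed to 226 to 267 CPM with HCME-sEVs and 304 to 329.9 CPM with LME-sEVs. Erythroid and platelet markers summed to 71.6 to 175 and 150.2 to 197 CPM. In all, 1131 of 12623 genes (8.96%) passed an FDR of 0.05, where FDR is the p-value of edgeR's quasi-likelihood test adjusted over all 12623 genes by the Benjamini-Hochberg method. Of these, 473 (3.75%) were higher and 658 (5.21%) lower with LME-sEVs, and the median log2 fold change over all tested genes was 0.01.

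Cluster histone genes were lower with LME-sEVs. Of the 54 genes, 12 fell and 1, H2ac10, rose, against background shares of 5.21% and 3.75%, and 50 had a log2 fold change below 0, against 48.5% of all tested genes. Their median log2 fold change was -0.50, beside 0.01 over all tested genes. In 18 of the 54 genes every LME-sEV library was below every HCME-sEV library, whereas 10.8% of all tested genes were separated in this direction, and in none was every LME-sEV library higher (9.49% of all tested genes, or 20.3% separated in either direction). Of the 12 that fell, 6 also passed the threshold for a DEG (a log2 fold change beyond 1 besides the FDR), which 0.658% of all tested genes did in this direction and 1.28% in either. Some cluster genes, listed further below, met the count minimum in only 1 group, among them H2ac10, H2ac14, and H2bc18. Their signs largely follow from that filter. With these genes left out, 10 of 48 fell, 4 of them as DEG, and none rose. Of the 48, 45 had a log2 fold change below 0, and the median was -0.48. The count of 12 moved most with 2 of the LME-sEV libraries: 4 cluster genes fell without LME-sEV replicate 2 and 3 without LME-sEV replicate 3, when 391 and 458 genes passed in all, and 9 to 12 fell without any other library. The median log2 fold change stayed between -0.63 and -0.44 in these 7 fits.

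The sum over the 54 genes was 645, 686, 653, and 565 CPM in HCME-sEV replicates 1 to 4 (637 ± 51.7 CPM, SD, n = 4), and it was 490.2, 494, and 409 CPM in LME-sEV replicates 1 to 3 (464 ± 47.6 CPM, SD, n = 3). All 3 LME-sEV sums were thus below the lowest HCME-sEV sum, and the ratio of the means was 0.729. This corresponded to 0.0629% ± 0.00470 of all counts with HCME-sEVs and 0.0472% ± 0.00444 with LME-sEVs. In bulk libraries, fewer cells that carry these mRNAs and fewer mRNAs per cell cannot be told apart.

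By histone type, the H1 genes summed to 248 ± 30.9 CPM with HCME-sEVs and 168 ± 8.32 CPM with LME-sEVs, a ratio of 0.678. For H4 the sums were 104 ± 6.37 and 72.2 ± 7.31 CPM, a ratio of 0.697, and for H2B they were 85.8 ± 1.35 and 64.2 ± 4.99 CPM, a ratio of 0.748. H1, H2B, H3, and H4 sums did not overlap between the groups. H2A sums did overlap (122 to 153 CPM against 90.6 to 126 CPM), and the H3 ratio of 0.782 drew on LME-sEV replicate 3, whose 34.6 CPM lay well below the 52.6 and 54.4 CPM of the other two libraries. Whether the types differed from each other in their change was not tested.

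**Figure D1:**
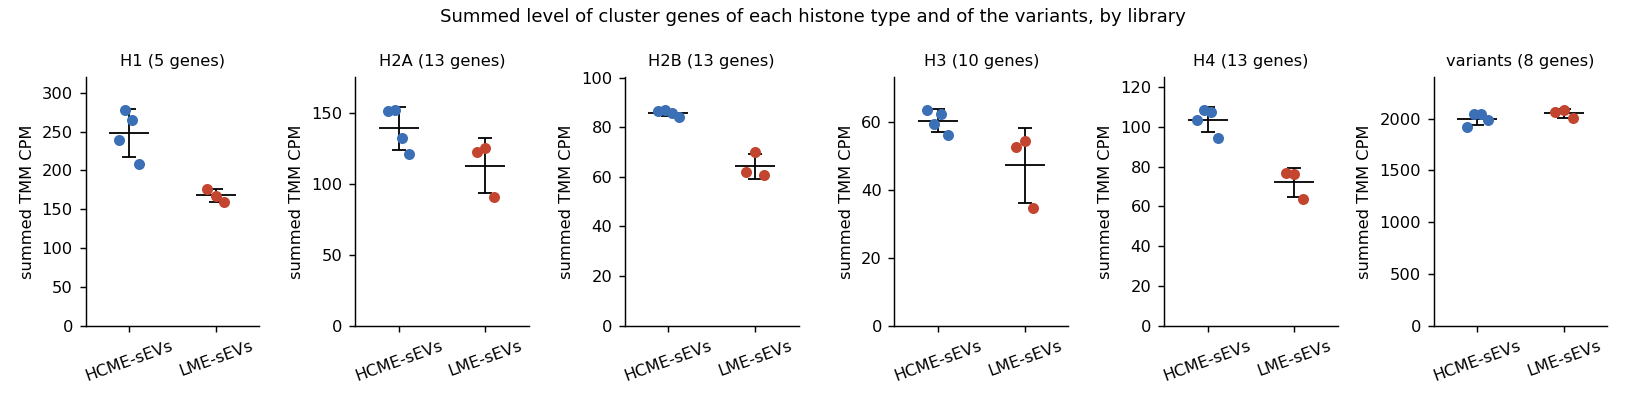
Summed TMM CPM of the cluster genes of each histone type and of the 8 variants (linear axes from 0), with 1 point per library, 4 for HCME-sEVs (blue) and 3 for LME-sEVs (red); black bars give the mean and SD. The H1, H2B, H3, and H4 points of the LME-sEV group all lie below those of the HCME-sEV group, the H2A points overlap, and the variant sums overlap near 2000 CPM.

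All 5 cluster genes of the linker histone H1 fell (5.21% of all tested genes). They lie on chromosome 13 and none of them has a near-identical 3′ end in another gene. H1f4 (Hist1h1e, chr13:23620629-23622558, minus strand) had 142, 169, 169.9, and 132 CPM in HCME-sEV replicates 1 to 4 and 105, 109.5, and 109 CPM in LME-sEV replicates 1 to 3. Its log2 fold change was -0.50 ± 0.09 (SE, FDR = 0.00231). The 3 LME-sEV values were close together and all below the lowest control value. The annotated 3′ UTR of H1f4 overlaps H2bc6 and another gene on the same strand, where reads can be left uncounted.

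H1f2 (Hist1h1c, chr13:23738808-23740367, plus strand) had 42.7, 45.2, 33.5, and 29.2 CPM with HCME-sEVs and 28.7, 28.9, and 19.9 CPM with LME-sEVs (log2 fold change -0.56 ± 0.16, FDR = 0.0318). The groups were separated only narrowly, between HCME-sEV replicate 4 and LME-sEV replicate 2. H1f5 (Hist1h1b, chr13:21779883-21780625, minus strand) had 27.4, 38.4, 34.8, and 29.0 CPM against 25.2, 20.6, and 23.4 CPM, and its log2 fold change was -0.49 ± 0.14 (FDR = 0.0299). Its LME-sEV values were again all lower.

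The remaining pair of H1 genes had the fewest counts of the H1 type. H1f3 (Hist1h1d, chr13:23553262-23560686, plus strand) had 16.1, 17.7, 14.6, and 12.8 CPM with HCME-sEVs and 12.6, 6.05, and 4.44 CPM with LME-sEVs, so LME-sEV replicate 1 lay just under the controls and the other two far below (log2 fold change -1.05 ± 0.25, FDR = 0.0123). H1f1 (Hist1h1a, chr13:23763666-23764406, plus strand) had 11.05, 8.33, 12.2, and 5.10 CPM against 4.56, 2.46, and 3.09 CPM (log2 fold change -1.45 ± 0.31, FDR = 0.00616). HCME-sEV replicate 4 was the lowest control library for H1f1, H1f2, H1f3, and H1f4.

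Among the H1 genes, H1f4 passed the threshold in each of the 7 fits that left out 1 library. H1f1 lost it without LME-sEV replicate 2 (FDR = 0.0556). H1f3 lost it without LME-sEV replicate 2 (0.0892) or 3 (0.108). H1f2 lost it without HCME-sEV replicate 1 (0.0590) or 2 (0.116) and without LME-sEV replicate 2 (0.0649) or 3 (0.218). H1f5 lost it without HCME-sEV replicate 2 (0.116) or 3 (0.0512) and without LME-sEV replicate 2 (0.164) or 3 (0.0987), and also with library size alone (0.0529) and with DESeq2 (0.0512). In each of these fits the log2 fold change of the 5 genes stayed below 0.

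**Figure D2:**
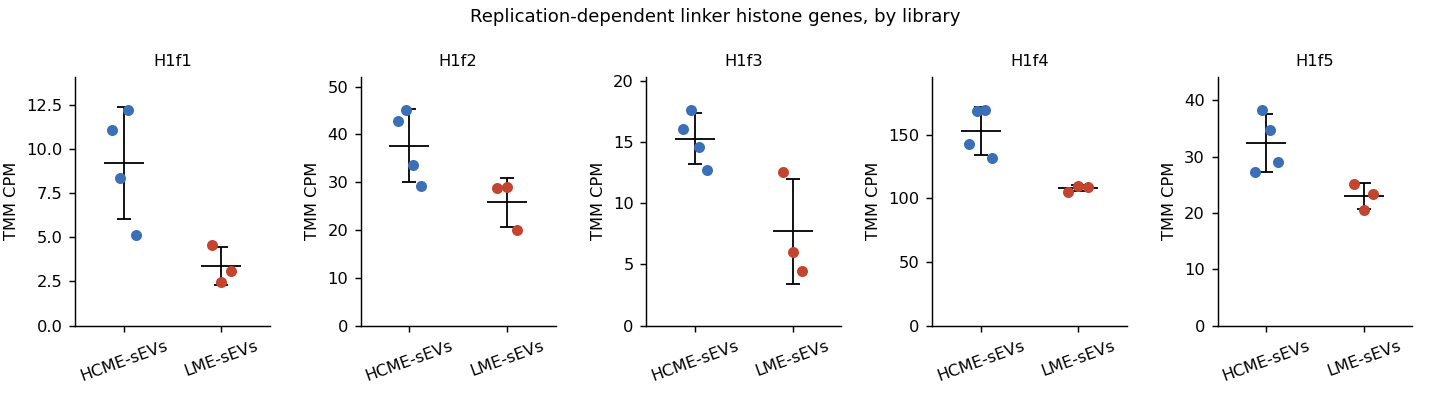
TMM CPM of the 5 replication-dependent linker histone genes (linear axes from 0), with 1 point per library for HCME-sEVs (blue, n = 4) and LME-sEVs (red, n = 3); black bars give the mean and SD. In each gene every red point lies below every blue point, most narrowly in H1f2 and H1f3.

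Since the 5 H1 genes moved together, their promoters are shown. The sequences are the 150 bases before the RefSeq start of each gene (GRCm38.p6), on the coding strand, with 3 short motifs in capitals where they occur on either strand. These are CCAAT, the core of a common promoter element bound by NF-Y, then the TATA box letters TATAAA, and then the H1 box known from linker histone promoters, with the letters AAACACA.
H1f1 (chr13:23763518-23763667, plus strand): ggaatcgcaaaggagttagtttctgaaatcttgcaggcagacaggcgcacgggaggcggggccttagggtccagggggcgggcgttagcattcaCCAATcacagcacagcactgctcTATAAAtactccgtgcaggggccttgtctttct
H1f2 (chr13:23738657-23738806, plus strand): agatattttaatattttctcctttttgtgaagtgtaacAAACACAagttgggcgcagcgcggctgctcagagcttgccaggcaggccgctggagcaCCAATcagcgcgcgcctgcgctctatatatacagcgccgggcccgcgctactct
H1f3 (chr13:23554882-23555031, plus strand): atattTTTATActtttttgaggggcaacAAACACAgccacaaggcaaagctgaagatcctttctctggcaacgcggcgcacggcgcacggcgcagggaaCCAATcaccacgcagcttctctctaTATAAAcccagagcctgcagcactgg
H1f4 (chr13:23622559-23622708, minus strand): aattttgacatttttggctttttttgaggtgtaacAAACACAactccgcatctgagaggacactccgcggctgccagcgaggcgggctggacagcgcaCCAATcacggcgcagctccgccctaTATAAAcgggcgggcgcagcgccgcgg
H1f5 (chr13:21780626-21780775, minus strand): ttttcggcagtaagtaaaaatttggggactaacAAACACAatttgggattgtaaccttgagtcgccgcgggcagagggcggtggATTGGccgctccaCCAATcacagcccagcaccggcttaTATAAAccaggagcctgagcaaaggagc
In all 5, CCAAT began 51 to 56 bases before the start. TATAAA stood 26 to 33 bases before it in H1f1, H1f3, H1f4, and H1f5. AAACACA stood 112 to 122 bases before it in H1f2 to H1f5, and was not in this window of H1f1. Capitals that read TTTATA or ATTGG are matches on the other strand.

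Over the 300-base RefSeq promoter window (250 bases before to 50 after the start), 48 of the 54 cluster genes had a sequence. CCAAT on either strand was in 39 of them (81.2%), against 37.4% of 32851 promoters, and was in every H1, H2A, H2B, and H3 promoter matched but in only 3 of 12 H4 promoters. TATAAA was in 29 of 48 (60.4%), against 13.6% of all promoters. AAACACA was in 4 of 5 H1 promoters, against 7.18% of all, and in 2 of the other 43. The octamer ATTTGCAT, known from H2B promoters, was in 6 of 12 H2A and 6 of 11 H2B promoters, against 1.74% of all, and in none of the H1, H3, and H4 promoters. A match of these letters is a description and not a measured site.

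Among the 13 H2A cluster genes, 3 fell and 1 rose (5.21% and 3.75% of all tested genes). The most counted H2A genes did not pass the test. H2ac8 (Hist1h2ae) had 32.1 ± 5.02 CPM with HCME-sEVs and 26 ± 5.09 CPM with LME-sEVs (log2 fold change -0.32 ± 0.15, FDR = 0.202), and H2ac11 (Hist1h2ag) had 30.3 ± 2.35 and 23.9 ± 5.36 CPM (-0.35 ± 0.14, FDR = 0.140). In both genes the groups overlapped. H2ac20 (Hist2h2ac, chr3:96220361-96220880, minus strand) fell, with 17.0, 10.1, 9.84, and 7.89 CPM in HCME-sEV replicates 1 to 4 and 7.51, 5.82, and 4.83 CPM in LME-sEV replicates 1 to 3 (log2 fold change -0.91 ± 0.26, FDR = 0.0323). HCME-sEV replicate 1 stood above the other controls, and without it the change of H2ac20 was -0.63 (FDR = 0.120). The threshold was also missed without HCME-sEV replicate 2 (0.0514) or LME-sEV replicate 2 (0.125) or 3 (0.170).

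Hist1h2an (chr13:21786826-21787218, minus strand) fell, from 7.44, 11.1, 5.32, and 7.89 CPM to 3.75, 2.02, and 3.87 CPM (log2 fold change -1.30 ± 0.30, FDR = 0.0107; 0.0810 without LME-sEV replicate 2). Every LME-sEV value was below every control value. The last 300 bases of this gene are near-identical to those of 11 other H2A genes, so reads can be split among them or left uncounted, and its own level is uncertain.

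H2ac10 and H2ac7 rested on 1 library each and H2ac14 on 2, and they had 6 to 11 near-identical copies each. H2ac10 had 22 CPM in LME-sEV replicate 2 and 0.505 to 1.39 CPM in the other 6 libraries, which gave the highest log2 fold change of all members, 2.78 ± 0.85 (FDR = 0.0447). Without that library H2ac10 fell below the count minimum, and it missed the threshold without HCME-sEV replicate 2 (0.116), 3 (0.0508), or 4 (0.102). H2ac14, an unprocessed pseudogene in the annotation, had 5.56 and 5.85 CPM in HCME-sEV replicates 2 and 3 and 0 counts in the other 5 libraries, and it gave the lowest log2 fold change, -6.56 ± 1.84 (FDR = 0.0317), a fitted value against 0 and so not a bound. Against the floor of 3 counts per LME-sEV library its mean was at least 4.16-fold lower, while HCME-sEV replicates 1 and 4 were at 0 as well. H2ac14 lost the threshold without LME-sEV replicate 1 (0.0747), 2 (0.124), or 3 (0.115), and it fell below the count minimum without HCME-sEV replicate 2 or 3.

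H2ac7, named here after its values were seen, had 15.8 CPM in HCME-sEV replicate 1 and 0.966 to 3.71 CPM in the other 6 libraries (-2.05 ± 0.65, FDR = 0.0542; 0.0194 without HCME-sEV replicate 2 and 0.0240 without HCME-sEV replicate 3). Limma-voom did not call H2ac10 (0.558) or H2ac14 (0.226). With H2ac7, H2ac10, and H2ac14 left out, 11 of 51 cluster genes fell (5.21% of all tested genes). None of the 51 rose by edgeR (3.75% of all tested genes), DESeq2, or limma-voom, and the median log2 fold change was -0.49.

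Of the 13 H2B cluster genes, 2 fell (5.21% of all tested genes), and 12 had a log2 fold change below 0 (48.5%). H2bc12 (Hist1h2bk, chr13:22035870-22036345, plus strand) had 20.4, 19.95, 19.7, and 19.95 CPM with HCME-sEVs and 11.8, 16.6, and 10.4 CPM with LME-sEVs (log2 fold change -0.63 ± 0.16, FDR = 0.0191). Its controls were nearly equal and all above the LME-sEV values, though 7 near-identical H2B copies make its own level uncertain. It lost the threshold without LME-sEV replicate 1 (0.0721) or 3 (0.141). H2bc11 (Hist1h2bj), the most counted H2B gene, had 21.7 ± 1.69 CPM with HCME-sEVs and 17.9 ± 2.38 CPM with LME-sEVs and did not pass (-0.28 ± 0.14, FDR = 0.251).

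H2bc18 (Hist2h2bb, chr3:96269752-96270132, plus strand) had few counts, at 6.0, 2.02, 3.46, and 1.39 CPM in HCME-sEV replicates 1 to 4 against 1.34, 0.896, and 0.580 CPM in LME-sEV replicates 1 to 3. The lowest of these were close to the floor, the log2 fold change was -1.80 ± 0.55 (FDR = 0.0435), and a gene on the same strand overlaps it. H2bc18 met the count minimum only through the HCME-sEV libraries (a mean of 13 counts against 4), so its sign largely follows from that filter. H2bc18 passed in 2 of the 7 fits that left out 1 library. It did not pass without HCME-sEV replicate 1 (0.169) or 3 (0.0549) or without LME-sEV replicate 1 (0.0580), 2 (0.146), or 3 (0.199), nor with limma-voom (0.0967).

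None of the 10 H3 cluster genes passed the FDR of edgeR's quasi-likelihood test, which 8.96% of all tested genes passed. Of the 10, 3 had an unadjusted p under 0.05 in this test, a level for which the share of all tested genes was not taken. A log2 fold change below 0 was found in 9 (48.5% of all tested genes), with a range of -0.93 to 0.05 and a median of -0.54. H3c3 (Hist1h3c), the most counted, had 15.1, 19.2, 26.3, and 19.3 CPM with HCME-sEVs and 20.4, 21.3, and 13.7 CPM with LME-sEVs (-0.12 ± 0.18, FDR = 0.756). Its groups overlapped throughout. H3c4 (Hist1h3d) had 9.84 ± 3.73 and 7.24 ± 0.297 CPM (-0.44 ± 0.25, FDR = 0.315). DESeq2 and limma-voom likewise called 0 of the 10 genes.

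All 13 H4 cluster genes had a log2 fold change below 0 (range -1.56 to -0.09, median -0.74), against 48.5% of all tested genes. Among them, H4c12 and Hist1h4m met the count minimum only through the HCME-sEV libraries (means of 7.75 and 7.5 counts against 4.67 and 3.33). The sign of these genes largely follows from that filter. Of the 13, 2 fell (5.21% of all tested genes). H4c3 (Hist1h4c, chr13:23697635-23698454, minus strand) had 17.8, 14.9, 19.9, and 16 CPM in HCME-sEV replicates 1 to 4 and 11.3, 11.4, and 9.47 CPM in LME-sEV replicates 1 to 3, with a log2 fold change of -0.68 ± 0.17 (FDR = 0.0133). H4c6 (Hist1h4f, chr13:23551258-23551648, minus strand) had 10.8, 5.05, 9.04, and 6.5 CPM against 3.49, 3.14, and 1.55 CPM (-1.56 ± 0.33, FDR = 0.00615). In both genes the LME-sEV values were all below the controls. Without LME-sEV replicate 3, which was the lowest library in each, the FDR was 0.0951 for H4c3 and 0.0572 for H4c6. H4c3 has no near-identical copy and H4c6 has 3.

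The most counted H4 genes, H4c9 (Hist1h4i) and H4c4 (Hist1h4d), did not pass. H4c9 had 23.8 ± 4.63 CPM with HCME-sEVs and 17.6 ± 1.70 CPM with LME-sEVs (-0.44 ± 0.16, FDR = 0.0868), with groups that did not overlap, and it passed without HCME-sEV replicate 3 (0.0350). H4c4 had 21.6 ± 3.78 and 17.3 ± 3.88 CPM (-0.32 ± 0.17, FDR = 0.273), and its groups overlapped.

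**Figure D3:**
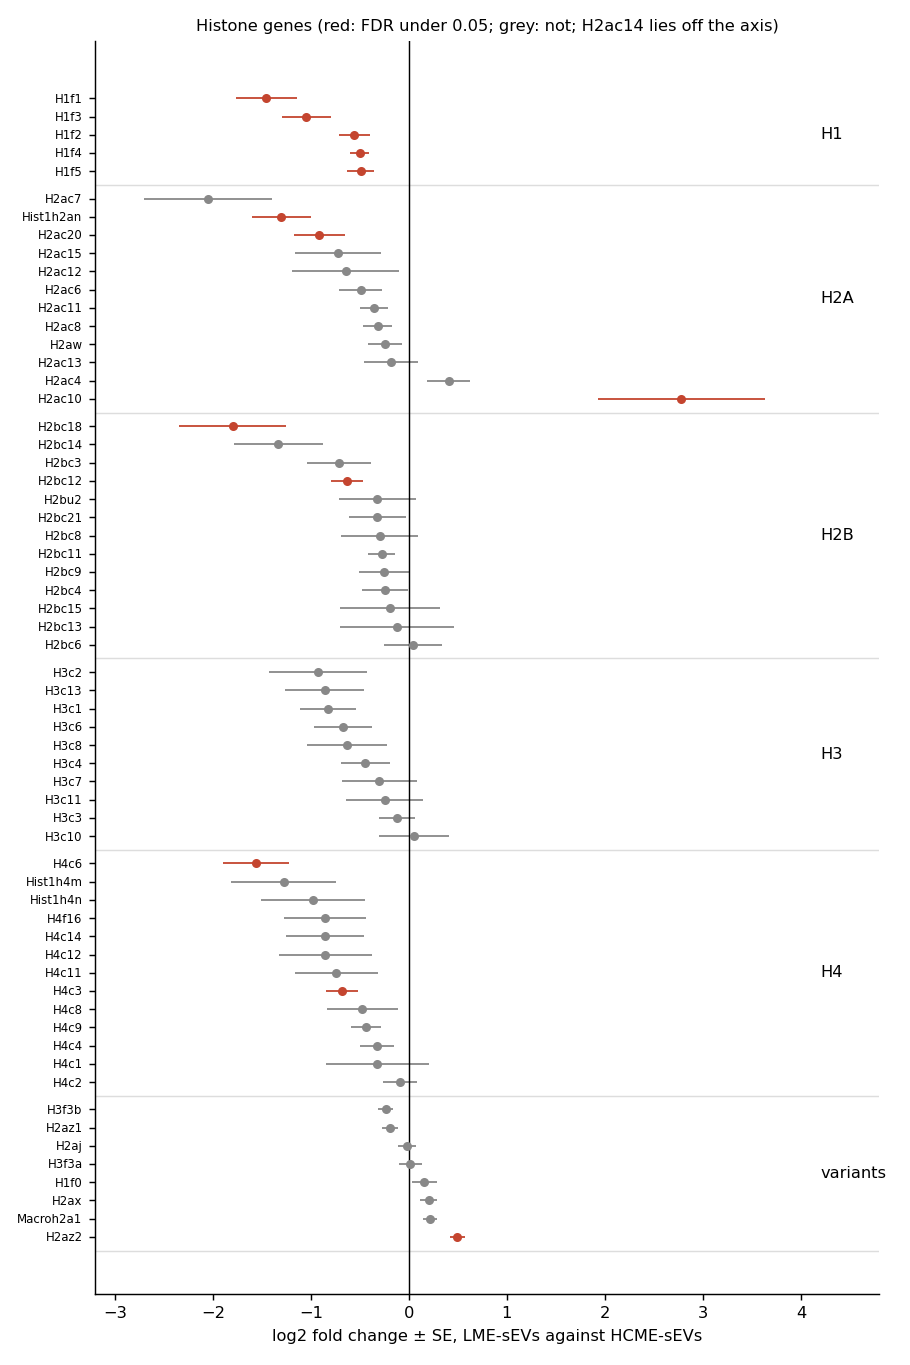
Log2 fold change of LME-sEVs against HCME-sEVs (x axis) with its SE for 61 of the 62 histone genes (y axis), grouped by type and ordered within it; red marks genes with an FDR under 0.05 and grey the rest, and H2ac14 at -6.56 is not drawn. Nearly all cluster genes lie left of 0, H2ac10 stands alone at 2.78, and the variants lie on both sides.

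Cluster genes could be described by how their transcripts are annotated to end. In 22 genes at least 1 transcript ran over 50 bases past the stem loop, which leaves room for a downstream poly(A) site, as in H1f4 (1153 bases past the loop) and H1f3 (4884). In 13 genes the transcripts ended within 50 bases of the loop, and in 19 no loop was annotated. Of these classes, 5 of 22, 2 of 13, and 5 of 19 genes fell (5.21% of all tested genes). Their median log2 fold changes were -0.47, -0.71, and -0.49, and the ratios of their summed CPM were 0.723, 0.750, and 0.727. A negative log2 fold change was seen in 21 of 22, 12 of 13, and 17 of 19 genes (48.5% of all tested genes). No test of a difference between the classes was made. A poly(A)-primed library samples tailed molecules or internal A-rich stretches, so these values describe the captured part of cluster histone mRNA and not its whole pool.

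**Figure D4:**
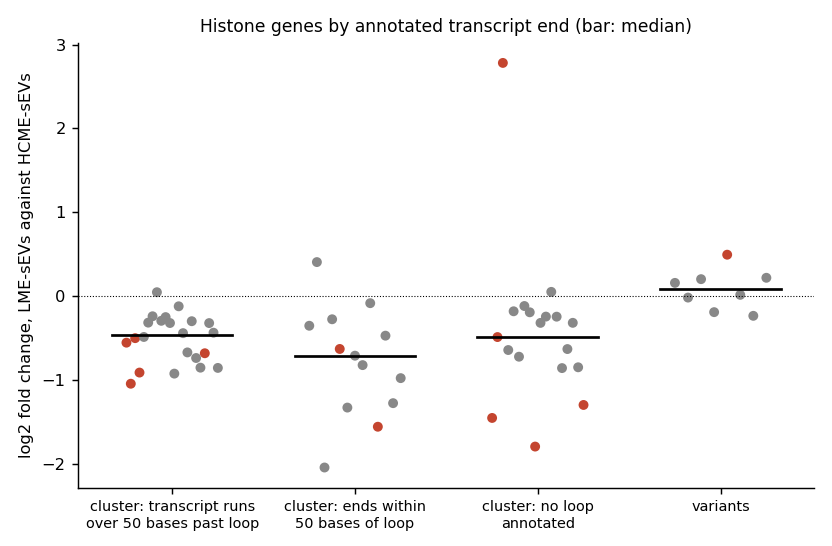
Log2 fold change of LME-sEVs against HCME-sEVs (y axis) for cluster genes in the 3 classes of annotated transcript end and for the 8 variants (x axis), with 1 point per gene, red where the FDR was under 0.05 and grey otherwise; bars are medians over all genes of a class, and H2ac14 is not drawn. The 3 cluster medians lie between -0.71 and -0.47, and the variant median is 0.09.

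Genes that fell were found both with and without near-identical 3′ ends elsewhere. Of the 54 cluster genes, 28 had a near-identical 3′ end in another histone gene (95% identity or more over at least 200 of the last 300 bases). In the 26 without one, 8 fell, none rose, and 25 had a log2 fold change below 0, with a median of -0.47 and a ratio of summed CPM of 0.715. In the 28 with one, 4 fell and 1 rose, with a median of -0.64 and a ratio of 0.764. Over all tested genes, 5.21% fell, 3.75% rose, and 48.5% had a log2 fold change below 0. The 6 cluster genes (H2ac10, H2ac12, H2ac14, H2bc18, H4c12, and Hist1h4m) met the count minimum in only 1 of the 2 groups, and with these left out 10 of 48 fell and none rose.

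Many H2A and H2B genes are arranged head to head and share the stretch between their starts. In all, 9 pairs of members had starts 176 to 660 bases apart on opposite strands, 8 of them an H2A with an H2B gene and 1 H2bc9 with H3c7. Both genes had a log2 fold change below 0 in all 9 pairs. In the pairs where a member passed the test, its partner did not: H2ac20 fell while H2bc21 had -0.32, H2bc12 fell while H2ac12 had -0.64, and H2ac14 with its 2 libraries stood beside H2bc14 at -1.33. By locus, 10 of 46 genes fell and 1 rose in the Hist1 cluster on chromosome 13 (5.21% and 3.75% of all tested genes). In the Hist2 cluster on chromosome 3, 2 of 5 fell, and the summed CPM had a ratio of 0.574.

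Of the 8 variant genes, 1 rose and none fell by edgeR, against 3.75% and 5.21% of all tested genes. A negative log2 fold change was found in 3 of the 8 (48.5% of all tested genes), and the median was 0.09. Counts over so few genes were not tested against these shares. The 8 genes summed to 1999.6 ± 58.5 CPM with HCME-sEVs and 2052 ± 44.4 CPM with LME-sEVs. The sums overlapped, and the ratio was 1.03. An unadjusted p under 0.05 in edgeR's test was found in 5 of the 8, 2 of them lower. The share of all tested genes at that level was not taken, so this count cannot be set against a background. DESeq2 and limma-voom each called 1 gene lower, H3f3b.

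H2az2 (H2afv, chr11:6427229-6444443, minus strand), which encodes an H2A.Z protein, rose. It had 213, 217, 217, and 243 CPM in HCME-sEV replicates 1 to 4 and 315, 332, and 293 CPM in LME-sEV replicates 1 to 3, a log2 fold change of 0.49 ± 0.08 (FDR = 0.00064). All LME-sEV libraries lay well above all controls, and the gene passed in each of the 7 fits that left out 1 library. The other H2A.Z gene, H2az1 (named after its values were seen), had 395, 366, 341, and 322 CPM against 310.0, 313, and 312 CPM (-0.19 ± 0.08, FDR = 0.144). Its LME-sEV values were slightly below the controls. Within a library the ratio of H2az2 to H2az1 counts was 0.538 to 0.756 with HCME-sEVs and 0.939 to 1.06 with LME-sEVs, without overlap. The ratio was chosen after the values were seen and was not tested.

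The remaining variants did not pass the FDR. H3f3b, one of the genes for H3.3, the H3 deposited outside replication, had 573, 668, 647, and 633 CPM with HCME-sEVs and 547, 532, and 526 CPM with LME-sEVs (-0.24 ± 0.07, FDR = 0.0505). All 3 LME-sEV libraries were below the controls, and the FDR fell on either side of the threshold by setting, at 0.0270 with DESeq2, 0.0434 with limma-voom, and 0.0120 without HCME-sEV replicate 1. Macroh2a1, for a macroH2A associated with silent chromatin, had 461, 493, 521, and 526 CPM against 594, 583, and 568 CPM (0.22 ± 0.07, FDR = 0.0676). Its LME-sEV libraries were all above the controls, and the FDR was 0.0422 with DESeq2 and 0.0315 with library size alone.

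H2ax, H2aj, H3f3a, and H1f0 were named after their values were seen. H2ax encodes the variant that is phosphorylated at DNA breaks, and it alone among the variants has the stem loop. It had 109, 124, 139, and 121 CPM with HCME-sEVs and 134, 149.6, and 141 CPM with LME-sEVs (0.20 ± 0.09, FDR = 0.174), with groups that overlapped. H1f0, the replication-independent linker histone, had 24.6 ± 2.73 and 27.3 ± 2.0 CPM (0.16 ± 0.13, FDR = 0.512), beside the 5 cluster H1 genes that fell. H2aj had -0.02 ± 0.09 and H3f3a 0.01 ± 0.12 on the log2 fold change scale. The sign of H2aj turned with library size alone and with upper-quartile scaling, and that of H3f3a without HCME-sEV replicate 4 or LME-sEV replicate 2. H3f3a has 22 near-identical 3′ ends elsewhere, mostly processed copies, so its level is uncertain.

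**Figure D5:**
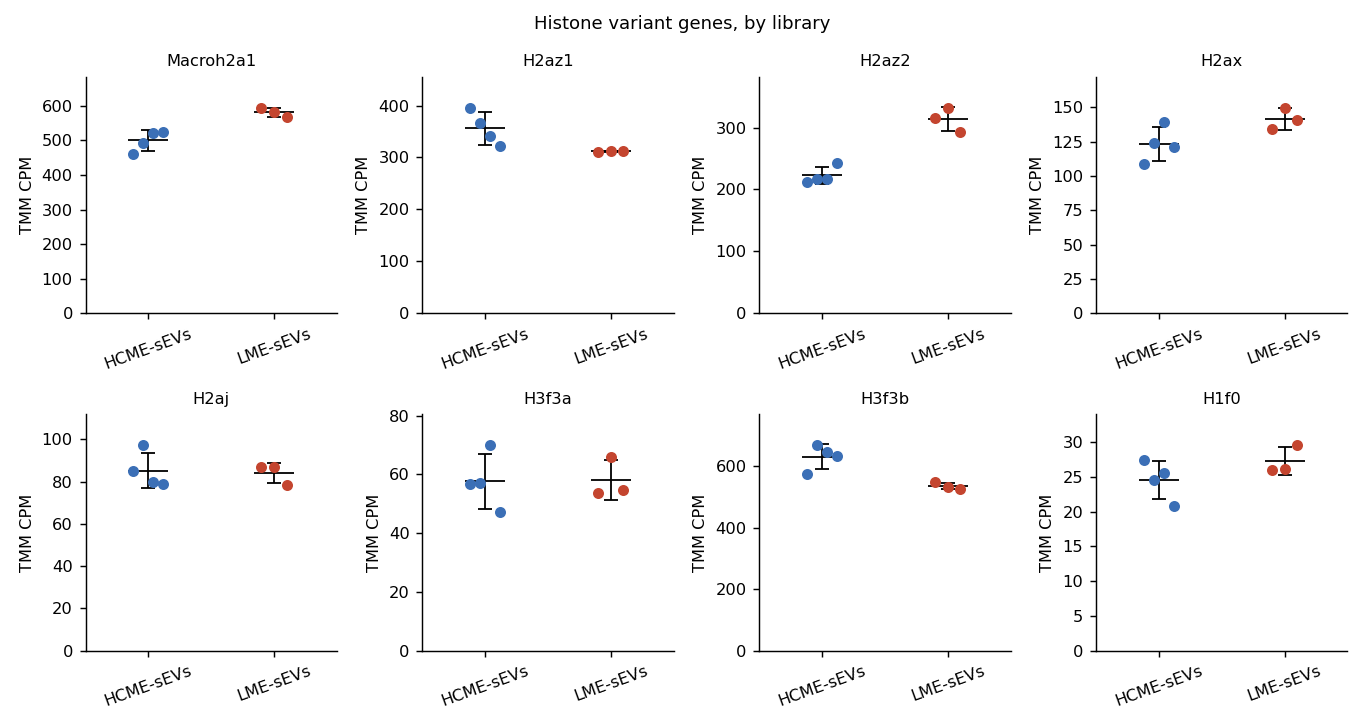
TMM CPM of the 8 histone variant genes (linear axes from 0), with 1 point per library for HCME-sEVs (blue, n = 4) and LME-sEVs (red, n = 3); black bars give the mean and SD. The red points lie above the blue in H2az2 and Macroh2a1, below them in H3f3b and H2az1, and among them in the other 4 genes.

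Of 14 factors that make or end replication-dependent histone mRNA, 1 fell and none rose, against 5.21% and 3.75% of all tested genes, and the median log2 fold change was -0.15. A count of 1 in 14 is close to the background share. The log2 fold change was below 0 in 10 of the 14 (48.5% of all tested genes). In 5 of the 14 every LME-sEV library was below every control (10.8%). The gene that fell was Cstf2, a cleavage stimulation factor subunit (-0.34 ± 0.08, FDR = 0.0137; 0.114 without LME-sEV replicate 2 and 0.0613 without LME-sEV replicate 3). Slbp, which binds the stem loop, had a log2 fold change of -0.12 ± 0.12 (FDR = 0.621), Npat, the coactivator of cluster histone transcription, 0.08 ± 0.09 (FDR = 0.657), and Casp8ap2, a component of histone locus bodies, -0.19 ± 0.08 (FDR = 0.151). Lsm11, a protein of the U7 particle, had 0.15 ± 0.14 (FDR = 0.576). None of these 4 differed beyond the threshold.

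Among 28 histone chaperones, exchange factors, and associated genes, 2 fell and none rose, again close to the 5.21% and 3.75% of all tested genes. The median was -0.05, and 21 of the 28 had a log2 fold change below 0 (48.5% of all tested genes). In 5 of the 28 every LME-sEV library was below every control (10.8%), and in 2 every one was above (9.49%). Asf1a, which hands H3 and H4 to assembly factors, had -0.45 ± 0.10 (FDR = 0.00843; 0.0706 without LME-sEV replicate 3). Nasp, which stores H3 and H4 and binds H1, had -0.33 ± 0.10 (FDR = 0.0336), and it lost the threshold in 4 of 7 fits that left out 1 library (without HCME-sEV replicate 1, 0.0679, or 2, 0.0769, and without LME-sEV replicate 2, 0.166, or 3, 0.159). Cenpa, the centromeric H3 variant that the naming rule did not include, had 0.15 ± 0.08 (FDR = 0.254).

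Some replication genes fell as well. Of 20 S-phase genes, 3 fell and none rose (5.21% and 3.75% of all tested genes), and the median was -0.19. A log2 fold change below 0 was found in 18 of the 20 (48.5% of all tested genes), and in 10 every LME-sEV library was below every control (10.8%). Ccne2, a cyclin of S-phase entry, had -0.50 ± 0.11 (FDR = 0.00568; 0.0538 without LME-sEV replicate 3), Pcna, the polymerase clamp, -0.28 ± 0.07 (FDR = 0.0234), and Cdc6, which licenses origins, -0.33 ± 0.10 (FDR = 0.0476). Pcna passed in 3 of the 7 fits that left out 1 library and Cdc6 in 1 of them. With all libraries kept, Cdc6 also missed the threshold with library size only (0.0975), the upper quartile (0.0651), filterByExpr (0.0514), a mean of 20 or more counts (0.0548), DESeq2 (0.0590), and the replicate block (0.0586). The median of the S-phase list was closer to 0 than the -0.50 of the cluster genes, and the difference was not tested. Of 12 genes of G2 and mitosis, 1 fell, beside 5.21% of all tested genes. It was Cdc20 (-0.32 ± 0.08, FDR = 0.0144; 0.0894 without LME-sEV replicate 1 and 0.0770 without LME-sEV replicate 3), and the median was -0.14. The log2 fold change was below 0 in 9 of the 12, and in 3 every LME-sEV library was below every control. In these 4 lists DESeq2 and limma-voom also called 0 genes higher, and 1 gene, a chaperone partner (Ubn2), was higher at an unadjusted p under 0.05 of edgeR's test. How far the share of cells in S phase moved with the cluster histone genes was not tested.

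Other measures moved with the same contrast. Small nuclear, nucleolar, and other short noncoding RNAs, which also lack poly(A) tails for the most part, fell in 46 of 135 tested genes and rose in 1 (5.21% and 3.75% over all tested genes), with a median log2 fold change of -0.84. Apart from a single ribosomal RNA row that held most of their counts (3.17% ± 0.545 and 3.33% ± 0.202 of a library), they took 0.190% ± 0.0239 of counts with HCME-sEVs and 0.121% ± 0.00428 with LME-sEVs, without overlap. A further fit left the histone rows and small noncoding RNA rows picked by gene name out of the scaling. That choice by name did not aim at ribosomal RNA and was not the same set as above. The median log2 fold change of the cluster genes stayed at -0.50. For the marker lists that follow, the background share of genes that rose was likewise 3.75%. Basophil, mast cell, and eosinophil markers summed to 5.52 to 35.1 CPM with HCME-sEVs and 29.0 to 45.9 CPM with LME-sEVs (3 of 6 tested rose), and erythroid and platelet markers to 71.6 to 175 and 150.2 to 197 CPM (3 of 6 rose). B-cell markers summed to 226 to 267 and 304 to 329.9 CPM, nearly all of it Ighm, with 1 of 3 tested genes higher and with Cd79a, Pax5, Cd22, and Blk below the count minimum. Myeloid markers summed to 6.06 to 8.88 and 11 to 13.7 CPM with 0 of 2 tested genes called, and of the CD4+ T-cell markers only Zbtb7b could be tested and rose, with sums of 5.52 to 13.4 and 14.3 to 16.4 CPM. CD8+ T-cell markers rose in 2 of 7 genes (Cd3e and Cd3g) and fell in none. The part of these measures in the histone results was not tested.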

How the data were processed

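CD8+ T cells were profiled in 7 libraries by QuantSeq 3′ mRNA-Seq with UMIs (4 HCME-sEV and 3 LME-sEV libraries, grouped by their labels). Per the labels and the study's methods, the authors trimmed reads with cutadapt 2.10, mapped them to GRCm38 with STAR 2.5.3a, collapsed UMIs with umi_tools 1.0.0, and counted genes with featureCounts of Subread 2.0.0. The annotation release and strand setting are not given in the sources used here. The deposited values are raw counts per gene symbol, whole numbers with no normalization. The assay primes on poly(A), so untailed histone mRNA is counted only in part, and reads that fit several near-identical genes may be split or dropped. A tag count is not scaled by gene length, so the order of genes by counts ("most counted") is not an order of transcript levels, and the ratio of H2az2 to H2az1 counts was compared only between libraries.

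The counts were tested with edgeR 4.0.16 (TMM, quasi-likelihood test, two-sided, 4 against 3 libraries, no covariates) over the 12623 genes whose mean reached 5 counts. Genes were called at an FDR under 0.05, and DEG also at a log2 fold change beyond 1. CPM is scaled by the TMM-adjusted library size. In simulated counts for this comparison over 12623 genes, 87.5% of 200 genes changed by 1.5 on the log2 scale were recovered, with 11 false calls. The changed genes were drawn from all tested genes, and the set change was larger than the cluster median of -0.50. The recovery rate therefore does not measure power for changes as small as that median or for genes with few counts. Replicate pairs differed by 2.12 to 6.02 times the sampling noise (chi-square per degree of freedom), so none was a mere resampling of another library. The check cannot tell whether libraries share RNA, a culture, or an animal, since separately made libraries can also differ beyond sampling noise. Counting error sets the floor of 3 counts per library.

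Older names were taken from RefSeq and checked against the GENCODE vM21 positions for overlap. Near-identical 3′ ends were found with BLAST 2.17.0 (95% identity over at least 200 of the last 300 bases). Promoters came from RefSeq (GRCm38.p6), for 55 of the 62 genes. The members and gene lists were chosen with earlier results of these data known, so no test was made over a list. Named genes were every member with an FDR under 0.05, the 2 most counted of each cluster type and of the variants, the members with the highest and lowest log2 fold change, Slbp, Npat, Casp8ap2, Lsm11, and Cenpa, up to 3 called genes of each context list by mean CPM, and the cell type markers. Alternatives were other scalings and filters, DESeq2 1.42.0 (Wald test), limma-voom (limma 3.58.1), a replicate block, leaving out each library, and, chosen after seeing the data, subsets of the cluster genes. The values of 1 marker gene are not reported here.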

Additional observations from a re-analysis of the deposited data

Results flagged for a closer look

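Among 43 sets of values of the 4 HCME-sEV libraries (the named genes and the summed cluster and variant levels), 3 had a library whose gap to its nearest neighbour exceeded Dixon's 95% critical value for 4 samples as a share of the group's range. Chance gives about 1 such set in 20. This check does not apply to groups of 3, such as LME-sEVs. In H2ac7, HCME-sEV replicate 1 was the highest (15.8 CPM against 1.26 to 3.71 CPM, a gap of 0.832 of the range). In H2az2, HCME-sEV replicate 4 was the highest (243 CPM against 213 to 217 CPM, 0.845 of the range), on the side of the LME-sEV libraries, which were all higher still. In Pcna, HCME-sEV replicate 4 was the lowest (333 CPM against 377 to 379 CPM, 0.944 of the range).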

How the results depend on the processing

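Of 400 values of the 41 named genes under other scalings, filters, and tests, 373 kept their direction and their side of the FDR threshold, 12 lost the threshold, 12 gained it, and 3 changed sign. The sign changes were those of H2aj with library size only (0.026) and with the upper quartile (0.0019), and of H3f3a with the replicate block (-0.078), where neither gene was called in any fit. DESeq2 gave no adjusted p for H2ac10, H2ac14, and H2bc18. Leaving out 1 library gave 284 values, of which 223 were unchanged in direction and call, 51 lost the threshold, 4 gained it, and 6 changed sign. These were H3c3 without replicate 3 of either group (range over the 7 fits -0.249 to 0.069), H2aj without HCME-sEV replicate 2 or LME-sEV replicate 3 (-0.057 to 0.0497), and H3f3a without HCME-sEV replicate 4 or LME-sEV replicate 2 (-0.087 to 0.117).

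The count of cluster genes called lower, 12, was 9 to 13 under the other scalings, filters, and tests that kept all libraries, and 3 to 12 when 1 library was left out. Within the subsets chosen after seeing the data, which hold fewer genes, it was 8 of 26, 10 of 48, and 11 of 51. The count called higher, 1, was 0 with filterByExpr, a mean of 20 or more counts, DESeq2, limma-voom, and in each of these 3 subsets (without a near-identical 3′ end, at the count minimum in both groups, without H2ac7, H2ac10, and H2ac14), and it was 0 to 1 when 1 library was left out. H2ac10, the gene called higher, was below the stricter filters and outside those subsets, had no adjusted p with DESeq2, and was not called by limma-voom. The median log2 fold change of cluster genes stayed between -0.54 and -0.43, and the log2 ratio of their summed CPM between -0.46 and -0.41, with all libraries kept.

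Variants called lower were 0 in the main test, 1 with scaling without small noncoding RNA and histone rows, with DESeq2, and with limma-voom, and 0 to 1 when 1 library was left out. Variants called higher were 1, and 2 with library size only, the upper quartile, a mean of 20 or more counts, and DESeq2, where Macroh2a1 was added. The log2 ratio of summed variant CPM was 0.04 and was 0.082 with library size only, which moved the median of all tested genes to 0.06. Chaperones called lower were 2, and 1 with library size only. S-phase genes called lower were 3, and 2 with library size only, the upper quartile, filterByExpr, a mean of 20 or more counts, and DESeq2. G2/M genes called lower were 1, and 2 with DESeq2. When 1 library was left out, genes called lower were 0 to 1 for 3′ processing, 0 to 4 for chaperones, 0 to 4 for the S phase, and 0 to 2 for G2/M. Apart from the left-out libraries and filters, the cause of these shifts was not tested.

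Replicate numbers 1 to 3 are shared by the groups. Same-numbered libraries deviated together with correlations of 0.03 to 0.15, against -0.21 to 0.08 for other pairs. In the main test the numbers were taken as names, and whether they mark pairs was not settled. A replicate block raised the calls over all genes from 1131 to 1454. With the block, 13 cluster genes were called lower, 2 variants lower and 2 higher, 4 chaperones lower, and 2 G2/M genes lower.

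Depth limits the low genes most: 39 of the 54 cluster genes had a mean under 10 CPM, and 3 counts in a library are 0.580 to 0.804 CPM.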
